A study of Mus musculus with 8 samples.

Results

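The proteases described here are the matrix metalloproteinases (MMPs), the ADAM and ADAMTS metalloproteinases, the cathepsins and 3 serine proteases, in the thoracic aorta of newborn mice that lack fibulin-4. The list holds 46 genes. A gene was taken where a row of the deposited value table carried its symbol alone in the platform annotation, and the row with the highest mean was kept for each gene. Such a row was found for 44 of the 46 genes, out of 22180 genes measured in the same way. Mmp15 and Adamts2 were not analysed here. The 44 genes comprise 8 secreted MMPs, 5 membrane-bound MMPs, 7 ADAMs, 16 ADAMTS proteases, 5 cathepsins and 3 serine proteases.

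Every mouse was of strain C57BL/6 and was taken at postnatal day 0. Wild-type pups and fibulin-4 knockout pups each gave an ascending segment, cut between the aortic valve and the ductus arteriosus, and a descending segment, cut between the vena cava and the diaphragm. Segments of the same kind and genotype were pooled from 8 pups, and each of the 4 groups holds 2 pools, 1 per Affymetrix array, which the labels call biological replicates. A pool averages its pups, so the spread between single pups was not seen, and the number of arrays limits the precision of every value below. The labels do not say how the knockout allele was made, and no check of genotype by the targeted gene is given, since that gene was not analysed here. The 10 smooth muscle marker genes had a mean log2 value between 8.73 and 9.26 on all 8 arrays.

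Fibulin-4 is a secreted glycoprotein that elastic fibre assembly requires, and the wall of large arteries depends on elastic fibres for its recoil. MMPs are zinc-dependent enzymes, made as inactive precursors, that cut collagens, gelatin, elastin and other matrix proteins, and tissue inhibitors of metalloproteinases (TIMPs) hold them in check. ADAMs sit in the cell membrane and release the outer parts of other membrane proteins, ADAMTS enzymes are secreted and cut proteoglycans or procollagens, and cathepsins work mainly in lysosomes but can also be secreted. Proteases of these families are studied in the aorta because loss of elastin and collagen accompanies aneurysm.

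All values are on the log2 scale of the deposited expression values, where a difference of 1 is a doubling. Each difference is the knockout mean minus the wild-type mean, from 1 limma fit over all 8 arrays, with p-values adjusted by Benjamini-Hochberg over all 22180 genes. The second arrays of both wild-type groups stood apart before any comparison: the interquartile range of all genes was 1.80 and 1.74 on them, against 2.14 to 2.28 on the other 6 arrays. The median of the 44 proteases was 6.02 and 5.98 on those arrays and 6.29 to 6.53 on the others. Counts or medians of the proteases and of many of the other gene lists are therefore also given without both arrays.

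Averaged over both segments, protease transcripts were mostly higher in the knockout aorta, but no single member passed the adjusted threshold. An unadjusted p under 0.05 was reached by 15 of the 44 genes (34.1%), all 15 higher in the knockout, where 7.57% of all genes were higher and 3.83% lower by the same rule (11.4% in all). An adjusted p under 0.05 was reached by 0 of the 44, where 0.0721% of all genes passed, and the smallest adjusted p of a member was 0.0892, for Adamts8. The median difference of the 44 genes was 0.36, against 0.00 over all genes tested, and 36 of the 44 differences lay above 0, as did 49.8% of all genes. Both knockout arrays exceeded both wild-type arrays in each segment for 13 of the 44 (29.5%), a pattern found in 7.81% of all genes. These 13 were Mmp2, Mmp9, Mmp14, Mmp19, Adam8, Adam9, Adamts1, Adamts4, Adamts8, Adamts12, Ctsd, Ctsl and Plau. The reverse pattern, with knockout arrays below wild-type arrays in each segment, was found for 0 of the 44 and for 4.04% of all genes. Without both narrow wild-type arrays, the median of the members was 0.24 and 14 of them passed the unadjusted threshold (12 higher, 2 lower), as did 13.5% of all genes. The number above 0 was then 29 of the 44: Mmp11, Mmp23, Adamts5, Adamts6, Adamts9, Adamts10, Adamts17, Ctsk and Htra1 turned below 0, and Mmp3 and Mmp12 above it. Of the 14 that passed, 10 were among the 15. Mmp14, Adam10, Adam19, Ctsb and Ctsd were no longer among them, and the pair below wild-type was Mmp16 (-0.58) and Adamts18 (-0.54).

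**Figure D1:**
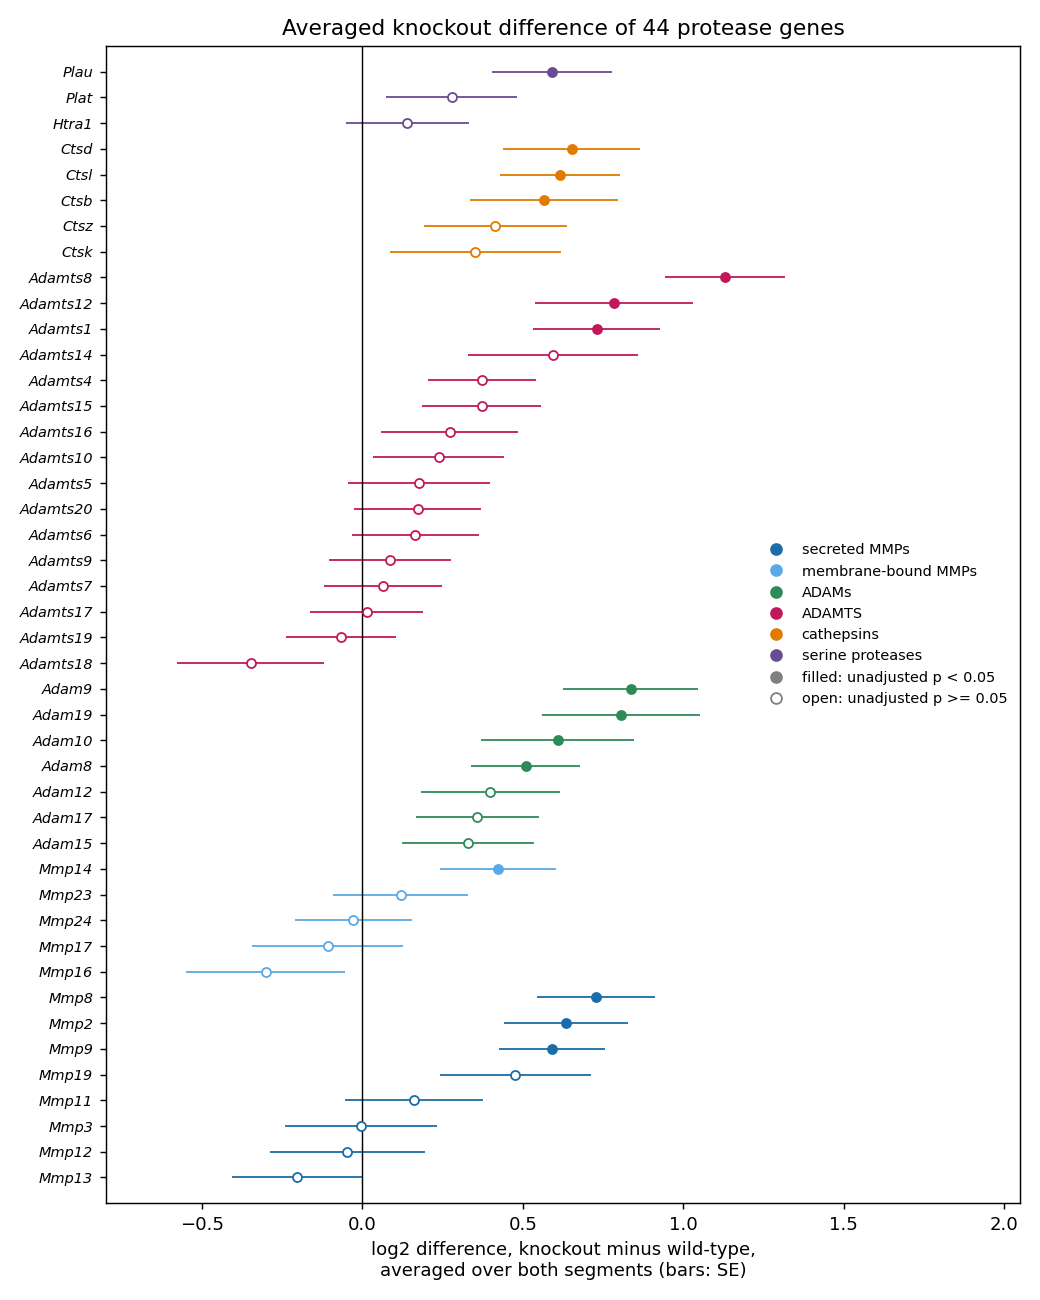
Difference between knockout and wild-type aorta, averaged over both segments, for each of the 44 protease genes. Points are log2 differences from the limma fit, bars are 1 standard error to each side, colours are families, and filled points have an unadjusted p under 0.05. All 7 ADAMs and all 5 cathepsins lie above 0, as do 49.8% of all genes. Of the genes in the brightest of 5 equal groups by level, 79.4% do. That group holds all 5 cathepsins and Adam9, Adam10, Adam15 and Adam19. The 5 membrane-bound MMPs lie on both sides.

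The averaged differences moved with the level of the genes. All genes were divided into 5 groups of 4436 by mean value, and the median difference of all genes was -0.14 in the dimmest group, then -0.12, -0.04 and 0.14, and 0.24 in the brightest. The brightest group held 21 of the 44 proteases, whose median difference was 0.42. An unadjusted p under 0.05 with a higher knockout mean was reached by 11 of these 21 (52.4%) and by 20.8% of all genes of that group. At the other end, the 3 proteases of the dimmest group, Mmp12, Mmp13 and Adamts18, all had differences below 0. Without both narrow wild-type arrays the median of all genes was 0.09 and that of the members 0.29 in the brightest group. Above 0 were then 14 of its 21 members, in place of 21, and 2669 of its 4436 genes, in place of 3522. The part of level in the members' values was not tested.

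**Figure D2:**
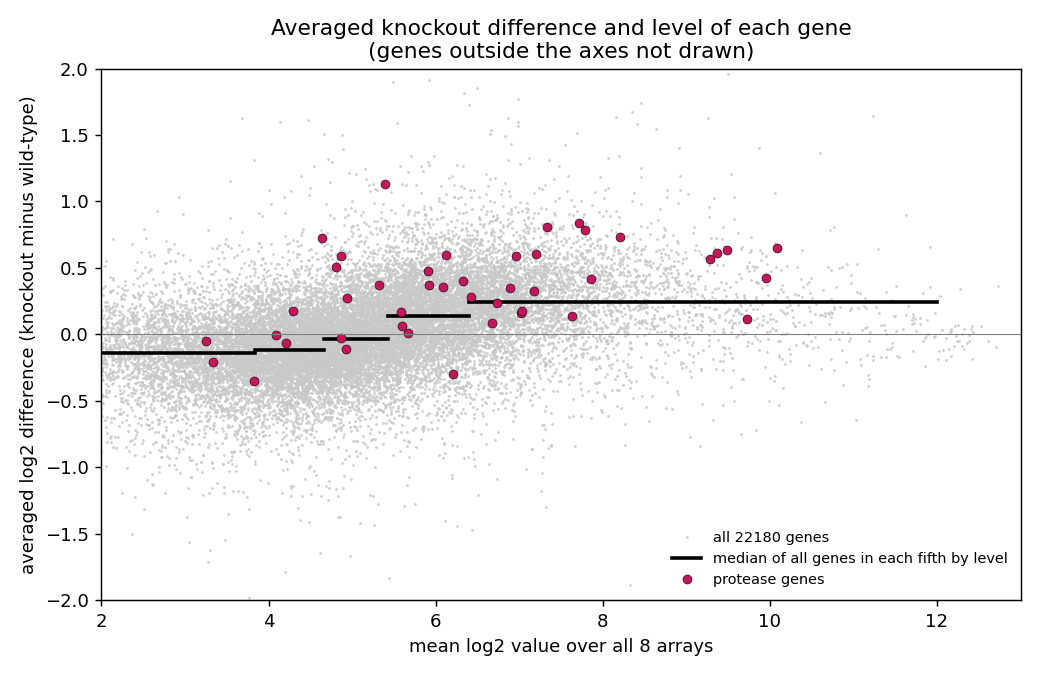
Averaged log2 difference (knockout minus wild-type) against the mean log2 value over all 8 arrays. Grey points are all genes tested, black lines are the medians of all genes in each of 5 equal groups by level, and red points are the proteases, of which 21 fall in the brightest group and have a median of 0.42 there.

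Secreted MMPs divided into 3 genes that stood higher in the knockout and 5 that did not pass the unadjusted threshold. The 8 genes had a median averaged difference of 0.32, from -0.20 to 0.73. Mmp2 encodes gelatinase A, which cuts denatured collagen and basement membrane collagen and had the highest mean value of the family. It read 9.04 and 9.17 on the wild-type ascending arrays and 9.90 and 9.90 on the knockout ascending arrays, and 9.56 and 8.93 against 9.75 and 9.68 in the descending aorta. The groups did not overlap in either segment, and the averaged difference was 0.63 (SE 0.19, unadjusted p = 0.00899, adjusted p = 0.311). Mmp9 encodes gelatinase B, the other gelatinase, made by several leukocytes among other cells. Its values were 4.61 and 4.72 in wild-type and 5.25 and 5.25 in knockout ascending aorta, and 4.47 and 4.50 against 5.04 and 5.13 in descending aorta. All 4 knockout arrays lay above all 4 wild-type arrays. The difference was nearly the same in both segments, 0.58 in the ascending (SE 0.23, unadjusted p = 0.0321) and 0.60 in the descending aorta (SE 0.23, unadjusted p = 0.0285), and 0.59 on average (adjusted p = 0.281).

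Mmp8, the collagenase stored in neutrophil granules, differed mainly in the ascending segment. There it read 4.13 and 4.18 in wild-type and 5.59 and 5.22 in knockout. In the descending segment the wild-type arrays read 4.30 and 4.48 and the knockout arrays 4.45 and 4.74, so that the groups overlapped. The ascending difference was 1.25 (SE 0.26, unadjusted p = 0.000781, adjusted p = 0.251), or 2.38-fold, and the descending difference 0.21 (SE 0.26, unadjusted p = 0.444). Of the others, Mmp19 had an averaged difference of 0.48 with knockout arrays above wild-type arrays in both segments, and Mmp11, the stromelysin of tissue stroma, 0.16. Mmp3, Mmp12 and Mmp13, which encode stromelysin 1, the macrophage elastase and collagenase 3, had averaged differences of 0.00, -0.05 and -0.20. In the descending segment both knockout arrays read below both wild-type arrays for Mmp12 (3.03 and 3.03 against 3.11 and 3.88) and Mmp13 (3.10 and 2.83 against 3.26 and 3.55), both among the dimmest of the 5 level groups. Non-overlap in that direction in the descending segment was found in 15.8% of all genes.

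Mmp3, Mmp8, Mmp12 and Mmp13 lie together on chromosome 9, and their upstream sequences are shown because the 4 neighbours differ in the letters of an AP-1 motif. Each window is the 150 bases before the annotated start, from RefSeq's annotation of build GRCm38.p6, on the plus strand: Mmp3 at chr9:7445672-7445821, Mmp12 at chr9:7347224-7347373 (1 of its 2 windows), Mmp13 at chr9:7272364-7272513 and Mmp8 at chr9:7558279-7558428. Capitals mark TGANTCA, the letters of an AP-1 motif, which reads the same on both strands.
Mmp3: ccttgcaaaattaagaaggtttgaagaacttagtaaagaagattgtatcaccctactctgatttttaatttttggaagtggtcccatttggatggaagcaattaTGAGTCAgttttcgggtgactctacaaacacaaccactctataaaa
Mmp12: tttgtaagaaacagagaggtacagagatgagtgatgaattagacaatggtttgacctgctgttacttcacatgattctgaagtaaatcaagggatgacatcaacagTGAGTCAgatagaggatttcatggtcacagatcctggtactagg
Mmp13: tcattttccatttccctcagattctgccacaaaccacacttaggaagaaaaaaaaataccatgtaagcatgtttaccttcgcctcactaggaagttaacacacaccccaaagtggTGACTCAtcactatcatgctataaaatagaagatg
Mmp8: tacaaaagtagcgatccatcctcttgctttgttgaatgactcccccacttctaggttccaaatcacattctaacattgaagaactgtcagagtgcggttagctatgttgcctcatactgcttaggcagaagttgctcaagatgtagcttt
The motif began at position -46 in Mmp3, -44 in Mmp12 and -35 in Mmp13, counted back from the start site, and these letters are not in the window of Mmp8. It occurred in the 250 bases before the start in 6.75% of 32851 annotated windows, and in 4 of the 29 windows (13.8%) of the 25 proteases that had any. The 4 belong to these 3 MMPs and Adam19. Whether these letters are related to the differences between genotypes was not tested. A match describes letters in a window, not a bound site.

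Other motifs were searched in the same windows on both strands, each on its own so that matches may overlap. GGGCGG, a GC box, was found in 15 of the 29 protease windows (51.7%) and in 32.7% of all windows. AGGAAG, the PEA3 motif of ETS factors, was found in 10 of the 29 (34.5%) and in 29.5% of all windows. TATAAA was found in 1 window each of Mmp3, Mmp13 and Adamts1 (10.3%) and in 12.4% of all windows, and CATTCC, the motif of TEAD factors, in 1 window of Adam19 (3.45%) and in 12.6%. Of the 17 proteases whose array values are given in full, 10 had a window.

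Membrane-bound MMPs showed no common direction, with a median averaged difference of -0.03 over 5 genes and 2 of 5 above 0. Mmp14 encodes MT1-MMP, which cuts collagen at the cell surface and activates the precursor of gelatinase A, and it had the highest mean value of the family. Its values were 9.62 and 9.60 against 10.22 and 9.96 in the ascending and 10.03 and 9.72 against 10.36 and 10.12 in the descending aorta, wild-type before knockout. Knockout arrays were the higher in each segment, with a modest averaged difference of 0.42 (SE 0.18, unadjusted p = 0.0420, adjusted p = 0.419). Without both narrow wild-type arrays the difference was 0.34 (unadjusted p = 0.118). The other 4, Mmp16, Mmp17, Mmp23 and Mmp24, ranged from -0.30 to 0.12 on average. All 4 were below 0 in the ascending segment, from -0.54 to -0.07, and 3 of the 4 were above 0 in the descending segment.

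All 7 ADAM genes had differences above 0 in both segments, as did 32.2% of all genes. Their median was 0.51 on average, 0.68 in the ascending and 0.43 in the descending aorta. Adam9, Adam10, Adam15 and Adam19 were in the brightest level group, where 79.4% of all genes lay above 0 on average. Adam12 and Adam17 were in the next group, where 67.7% did, and Adam8 in the middle group, where 44.2% did. All 7 were also above 0 on average without both narrow wild-type arrays, where Adam10 was at -0.02 in the descending segment. Adam9 encodes meltrin gamma, a widely made sheddase, and had the highest mean value of the family. It read 7.14 and 7.23 against 7.83 and 8.47 in the ascending and 7.61 and 7.20 against 8.25 and 7.98 in the descending aorta. No array of one genotype reached the values of the other, and the averaged difference was 0.84, or 1.79-fold (SE 0.21, unadjusted p = 0.00283, adjusted p = 0.238). Adam8, an ADAM made by myeloid cells, read 4.50 and 4.64 against 5.37 and 5.13 in the ascending segment and 4.56 and 4.50 against 4.87 and 4.86 in the descending segment. Again every knockout array lay above every wild-type array, with an averaged difference of 0.51 (SE 0.17, unadjusted p = 0.0140, adjusted p = 0.342). Adam10 encodes the sheddase of Notch receptors and cadherins. Its wild-type arrays read 6.99 and 6.70 in the ascending and 7.45 and 6.47 in the descending segment, and its knockout arrays 7.57 and 7.60, and 7.26 and 7.61. The wild-type descending arrays lay far apart and 1 of them exceeded a knockout array, so that the groups overlapped there. The averaged difference of Adam10 was 0.61 (SE 0.24, unadjusted p = 0.0302, adjusted p = 0.391) and was 0.29 without both narrow wild-type arrays.

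Adam19 encodes meltrin beta, which is needed for the development of heart valves and septa. It read 6.47 and 6.47 in wild-type and 7.40 and 8.19 in knockout ascending aorta, and 7.68 and 7.11 against 7.39 and 7.99 in descending aorta. The wild-type ascending arrays were the 2 lowest of the 8, and the descending groups overlapped. The ascending difference was 1.32, or 2.50-fold (SE 0.35, unadjusted p = 0.00384, adjusted p = 0.353), and the descending difference 0.29 (SE 0.35, unadjusted p = 0.429). A second probe set of Adam19, with a lower mean, did not show this, at -0.26 in the ascending and 0.21 in the descending aorta, and the mean of both probe sets gave 0.53 in the ascending aorta. The window upstream of Adam19 that holds the AP-1 letters, 1 of its 3, is at chr11:46055834-46055983 on the plus strand, with the motif at position -131, and is shown as the one ADAM window that holds them.
Adam19: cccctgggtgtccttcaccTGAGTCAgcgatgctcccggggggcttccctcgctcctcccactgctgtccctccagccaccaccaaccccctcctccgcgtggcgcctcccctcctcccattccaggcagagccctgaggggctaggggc
The remaining ADAMs were Adam12 (0.40), Adam15 (0.33) and Adam17 (0.36), the last of which encodes the enzyme that releases tumour necrosis factor, and none of the 3 reached an unadjusted p under 0.05 on average.

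**Figure D3:**
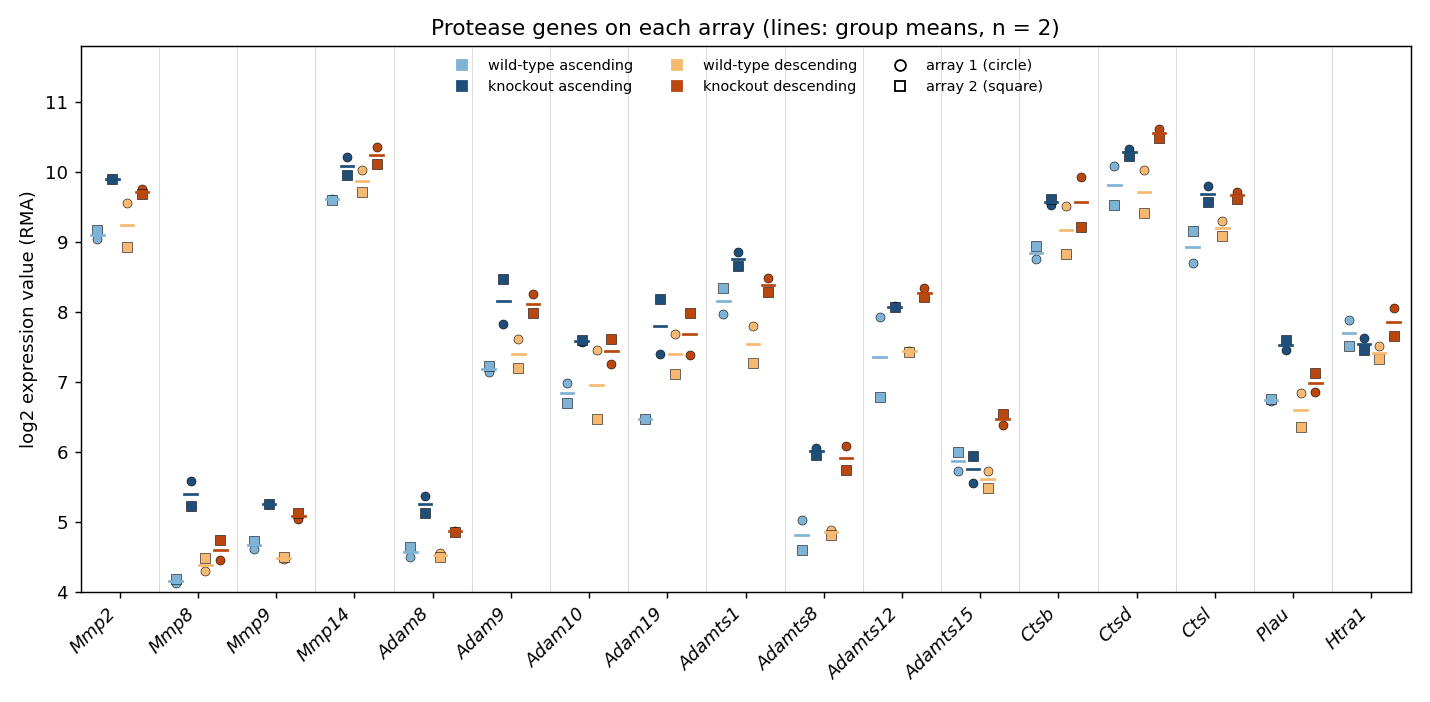
Log2 expression values of 17 proteases on each of the 8 arrays (circle, array 1; square, array 2; line, group mean of 2 arrays). Colours give genotype and segment. Mmp8 stands high on the knockout ascending arrays, Adamts15 on the knockout descending arrays, and Adamts8 on all 4 knockout arrays.

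Among the ADAMTS proteases 3 of 16 (18.8%) passed the unadjusted threshold on average, against 11.4% of all genes, with a family median of 0.21. The 3 passing genes, Adamts1, Adamts8 and Adamts12, stood higher in the knockout in both segments. Adamts8, one of the ADAMTS enzymes that cut aggrecan, had the largest averaged difference of the 44 proteases. It read 5.03 and 4.60 against 6.06 and 5.96 in the ascending segment and 4.89 and 4.81 against 6.08 and 5.74 in the descending segment. The lowest knockout array was 5.74 and the highest wild-type array 5.03. Its difference was 1.20 in the ascending aorta (SE 0.26, unadjusted p = 0.00119, adjusted p = 0.278), 1.06 in the descending aorta (SE 0.26, unadjusted p = 0.00271, adjusted p = 0.609) and 1.13 on average (SE 0.19, unadjusted p = 0.000149, adjusted p = 0.0892), or 2.19-fold. Its second, dimmer probe set gave 0.20 on average, and the mean of both gave 0.66.

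Adamts1 and Adamts12 followed. Adamts1, an enzyme that cuts versican and aggrecan and had the highest mean value of the family, read 7.97 and 8.34 against 8.86 and 8.65 in the ascending and 7.80 and 7.27 against 8.48 and 8.29 in the descending aorta. The genotypes did not overlap within a segment, and the averaged difference was 0.73 (SE 0.20, unadjusted p = 0.00469, adjusted p = 0.273). Adamts12, which cuts cartilage oligomeric matrix protein, read 7.92 and 6.78 against 8.08 and 8.07 in the ascending and 7.44 and 7.43 against 8.34 and 8.21 in the descending aorta. Its averaged difference was 0.78 (SE 0.25, unadjusted p = 0.0105, adjusted p = 0.322). The ascending part of it rested on 1 wild-type array that read 6.78: without both narrow wild-type arrays the ascending difference was 0.16 and the descending one 0.84.

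Adamts15, another enzyme that cuts versican and aggrecan, differed in the descending segment. There it read 5.73 and 5.49 in wild-type and 6.39 and 6.54 in knockout, a difference of 0.86 (SE 0.26, unadjusted p = 0.00875, adjusted p = 0.734). In the ascending segment the wild-type arrays read 5.73 and 6.00 and the knockout arrays 5.56 and 5.94, which overlapped, with a difference of -0.12 (SE 0.26). The other 12 ADAMTS genes ranged from -0.35 (Adamts18) to 0.59 (Adamts14) on average, 10 of the 12 above 0. They include Adamts4 (0.37) and Adamts5 (0.18), which encode the main aggrecanases of cartilage, Adamts9 (0.09) and Adamts20 (0.17), and Adamts10 (0.24) and Adamts6 (0.17), a related pair linked to fibrillin microfibrils. None of the 12 had an unadjusted p under 0.05 on average. A second, dimmer probe set of Adamts14 gave 0.16 on average, with -0.13 in the ascending and 0.46 in the descending aorta. With both narrow wild-type arrays dropped, 5 of these 12 genes were above 0, and Adamts14 was at 0.19. The family as a whole then had 9 of 16 above 0 in place of 14, with a median of 0.14.

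All 5 cathepsins had differences above 0 in both segments, as did 32.2% of all genes. Their median was 0.57 on average and 0.47 in the ascending segment. All 5 were in the brightest of the 5 level groups, where 79.4% of all genes lay above 0 on average, with a median of 0.24. In the ascending segment 75.5% of that group lay above 0, with a median of 0.25. The cathepsin medians were 0.36 and 0.19 without both narrow wild-type arrays. Ctsk then turned to -0.10 on average and -0.22 in the ascending segment. Ctsd encodes the lysosomal aspartic protease cathepsin D and had the highest mean value of the family. It read 10.09 and 9.53 against 10.33 and 10.23 in the ascending and 10.03 and 9.41 against 10.62 and 10.49 in the descending aorta. The wild-type pairs lay far apart, yet no knockout array fell to a wild-type value of its segment. The averaged difference was 0.65 (SE 0.21, unadjusted p = 0.0127, adjusted p = 0.337) and was 0.36 without both narrow wild-type arrays. Ctsl encodes cathepsin L, a cysteine protease that can also cut elastin and collagen. Its values were 8.70 and 9.16 against 9.80 and 9.57, and 9.30 and 9.09 against 9.71 and 9.62. The groups did not overlap in either segment, and the averaged difference was 0.61 (SE 0.19, unadjusted p = 0.00861, adjusted p = 0.310), or 0.68 without both narrow arrays. Ctsb, cathepsin B, read 8.75 and 8.94 against 9.53 and 9.61 in the ascending and 9.51 and 8.82 against 9.93 and 9.21 in the descending aorta, where the groups overlapped. Its averaged difference was 0.56 (SE 0.23, unadjusted p = 0.0356, adjusted p = 0.403). Ctsk and Ctsz, which encode the collagen-cutting cathepsin K of osteoclasts and cathepsin Z, had averaged differences of 0.35 and 0.41 with no unadjusted p under 0.05.

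Of the serine proteases, Plau stood higher in the knockout in both segments. It encodes urokinase, which turns plasminogen into plasmin at the cell surface. The wild-type arrays read 6.72 and 6.75 in the ascending and 6.84 and 6.35 in the descending aorta, and the knockout arrays 7.45 and 7.60, and 6.86 and 7.12. In the descending segment the lowest knockout array exceeded the highest wild-type array by little. The difference was 0.79 in the ascending (SE 0.27, unadjusted p = 0.0145, adjusted p = 0.470), 0.39 in the descending (SE 0.27, unadjusted p = 0.173) and 0.59 on average (SE 0.19, unadjusted p = 0.0110, adjusted p = 0.328). The ascending minus the descending effect of Plau was 0.40 (SE 0.38, unadjusted p = 0.313). Plat, the gene of tissue plasminogen activator, had an averaged difference of 0.28 (SE 0.20, unadjusted p = 0.203). Htra1, a secreted serine protease that cuts matrix proteins and had the highest mean value of the family, read 7.89 and 7.51 against 7.63 and 7.45 in the ascending and 7.51 and 7.32 against 8.06 and 7.65 in the descending aorta. The genotypes overlapped in the ascending segment and not in the descending one, and the averaged difference was 0.14 (SE 0.19, unadjusted p = 0.482).

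Within the ascending segment alone, 9 of the 44 proteases (20.5%) had an unadjusted p under 0.05, all higher in the knockout, where 5.31% of all genes were higher and 3.60% lower (8.90% in either direction). These were Mmp2, Mmp8, Mmp9, Adam8, Adam9, Adam19, Adamts8, Ctsl and Plau. The median was 0.37, against -0.01 over all genes, and 31 of the 44 were above 0, as were 49.3% of all genes. An adjusted p under 0.05 was reached by 0 of the 44 and by 0% of all genes in this segment. Knockout arrays exceeded wild-type arrays for 20 of the 44, where 21.5% of all genes did so, and lay below them for 3, Mmp24, Adamts17 and Adamts19, where 18.3% of all genes did so. Without both narrow wild-type arrays the count was 15, 14 higher and 1 lower, where 17.7% of all genes passed, and the median was 0.18. The 15 held all 9 genes. Leaving out the second wild-type ascending array alone gave a median of 0.18. The median was 0.38 without the first knockout ascending array and 0.39 without the second.

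Within the descending segment 7 of the 44 (15.9%) had an unadjusted p under 0.05, again all higher in the knockout, where 3.63% of all genes were higher and 2.32% lower (5.95% in either direction). They were Mmp9, Adam9, Adamts1, Adamts8, Adamts12, Adamts15 and Ctsd. The median was 0.33, against 0.03 over all genes, and 39 of the 44 differences were above 0, as were 53.7% of all genes. An adjusted p under 0.05 was reached by 0 of the 44 and by 0.00451% of all genes. Knockout arrays exceeded wild-type arrays for 26 of the 44, where 21.6% of all genes did so. The count of 7 at an unadjusted p under 0.05 rested on few arrays. It was 11 (10 higher, 1 lower) without the first wild-type descending array, where 12.2% of all genes passed, and 4 (2 higher, 2 lower) without the second, where 3.40% passed. Without the first knockout descending array it was 2 (4.55% of the 44, against 3.51% of all genes), and without the second it was 3 (6.82% against 3.44%), all higher. With both narrow wild-type arrays left out there were 6, 4 higher and 2 lower, of which 4 were shared with the 7, where 6.36% of all genes passed.

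**Figure D4:**
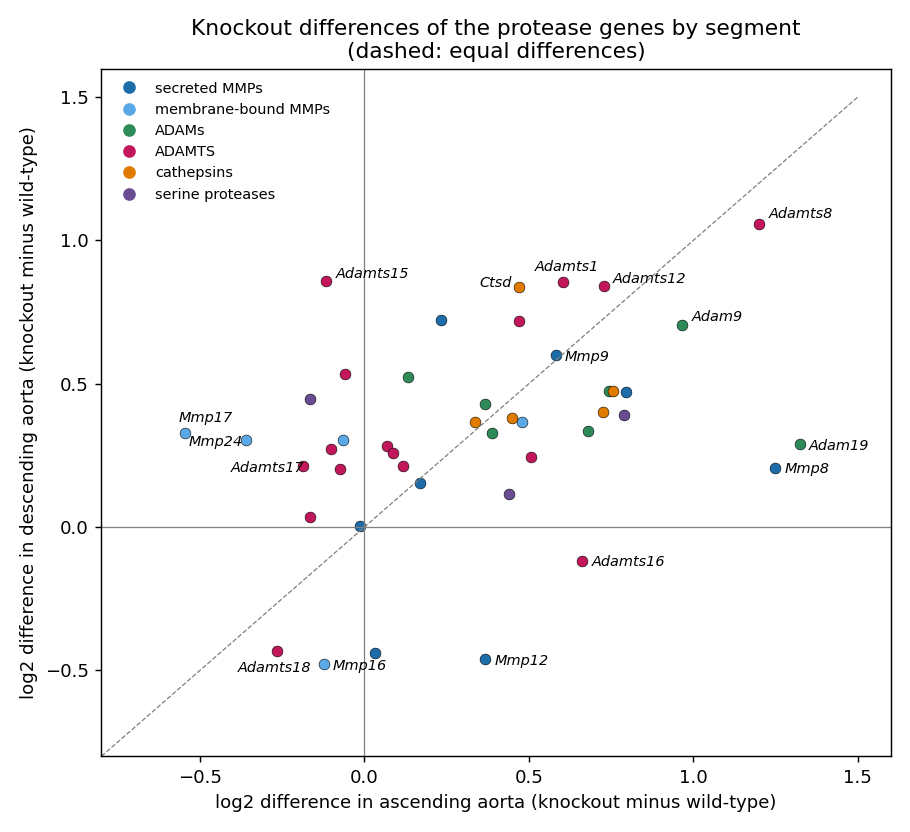
Knockout minus wild-type log2 difference of each protease in the descending aorta against that in the ascending aorta. Colours are families and the dashed line marks equal differences. Mmp8 (1.25 and 0.21) and Adam19 (1.32 and 0.29) lie below the line, and Adamts15 (-0.12 and 0.86) above it.

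The knockout effect was then compared between segments. Differences lay above 0 in both segments for 28 of the 44, as for 32.2% of all genes, and below 0 in both for Mmp16 and Adamts18, as for 29.2% of all genes. Tested as an interaction, the ascending minus the descending effect had an unadjusted p under 0.05 for 2 of the 44 (4.55%), 1 higher and 1 lower, where 3.30% of all genes passed (1.62% higher, 1.68% lower), and an adjusted p under 0.05 for 0 of the 44 and 0% of all genes. The 2 were Mmp8, with a difference larger by 1.04 in the ascending segment (SE 0.36, unadjusted p = 0.0178, adjusted p = 1.00), and Adamts15, at -0.97 (SE 0.37, unadjusted p = 0.0259, adjusted p = 1.00). For Adam19 the interaction was 1.04 (SE 0.49, unadjusted p = 0.0636). The interaction was above 0 for 21 of the 44, as for 47.6% of all genes. The genotypes separated in opposite directions in the segments for 2 of the 44, Mmp24 and Adamts17, as for 3.65% of all genes. The interaction of Adamts8 was 0.14 (SE 0.37) and that of Mmp9 was -0.02 (SE 0.33).

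Ascending and descending aorta of the same genotype were also compared, as ascending minus descending. In wild-type, 1 of the 44 had an unadjusted p under 0.05, where 6.19% of all genes passed (3.21% higher and 2.98% lower in the ascending segment): Adam19, at -0.93 (SE 0.35, unadjusted p = 0.0250, adjusted p = 0.756). Its second probe set gave 0.27 for this difference and -0.48 for the interaction printed above as 1.04, and with the probe sets of each gene averaged 0 of the 44 passed in wild-type. Its 2 wild-type ascending arrays both read 6.47 and its wild-type descending arrays 7.68 and 7.11. Adamts1 was higher by 0.62 in the wild-type ascending segment (SE 0.28, unadjusted p = 0.0536). In the knockout, 3 of the 44 passed, where 4.04% of all genes did (2.00% higher, 2.04% lower): Mmp8 at 0.81 (unadjusted p = 0.0114), Adamts16 at 0.84 and Adamts15 at -0.72 (unadjusted p = 0.0214). Ascending values were the higher for 27 of the 44 in wild-type, as for 51.7% of all genes, and for 25 in knockout, as for 48.3%. The median segment difference of the proteases was 0.07 in wild-type and 0.05 in knockout, against 0.02 and -0.01 over all genes. Leaving out 1 array at a time moved these medians between -0.06 and 0.27 in wild-type and between -0.02 and 0.05 in knockout, so that neither kept its sign. An adjusted p under 0.05 was reached by 0 of the 44 in either genotype, and by 0.00902% of all genes in wild-type and 0% in knockout.

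Protease inhibitors held the one gene around these proteases that passed the adjusted threshold. Of 23 listed inhibitors 21 were measured, with a median averaged difference of 0.07. At an unadjusted p under 0.05, 3 (14.3%) were higher and 1 lower, against 7.57% and 3.83% of all genes. Without both narrow wild-type arrays the median of the inhibitors was -0.01, with 10 of the 21 above 0 in place of 13. Serpina3n, a secreted inhibitor of serine proteases, read 7.03, 6.58, 6.79 and 7.19 on the wild-type arrays and between 8.77 and 9.70 on the 4 knockout arrays. It rose by 2.26 in the knockout (SE 0.21, adjusted p = 0.0144). Timp1, an inhibitor of most MMPs, read 8.88, 7.89, 8.48 and 8.30 on wild-type and 9.65, 9.88, 9.26 and 9.10 on knockout arrays. No knockout array of Timp1 fell to a wild-type value, and the averaged difference was 1.08 (SE 0.24, unadjusted p = 0.00109, adjusted p = 0.170).

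Other proteases were described in a pair of lists that differ in level. The 25 other metalloproteinases and ADAMTS-like genes include 3 from the brightest of the 5 level groups. Of the 25, 2 (8%) were higher and 0 lower at an unadjusted p under 0.05, near the 7.57% of all genes that were higher, with a median of 0.01: Bmp1, the procollagen C-proteinase, at 0.59 (adjusted p = 0.310) and Adamtsl2, an ADAMTS-like protein of microfibrils, at 0.48 (adjusted p = 0.406). Of 25 other cathepsins and serine proteases, with convertases and the urokinase receptor, 11 were from the brightest group, and 10 (40%) were higher and 0 lower, with a median of 0.28. Plaur, the urokinase receptor that holds the product of Plau at the cell surface, read 6.08, 6.09, 5.93 and 5.89 on wild-type arrays and 7.47, 7.79, 6.78 and 6.76 on knockout arrays. Like Plau it was highest on the 2 knockout ascending arrays, and its averaged difference was 1.21 (SE 0.17, unadjusted p = 4.53e-05, adjusted p = 0.0540). Ctss, cathepsin S of antigen-presenting cells, had an averaged difference of 1.10 (SE 0.20, adjusted p = 0.111). Without both narrow wild-type arrays the medians of these lists were 0.08 and 0.25, in the same order.

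Matrix proteins that these enzymes are known to cut were mostly bright genes. Of 21 listed substrates 20 were measured, 18 of them from the brightest level group. An unadjusted p under 0.05 was reached by 11 (55%), all higher, with a median of 0.44 and 19 of 20 above 0. Over all genes of the brightest group 20.8% were higher by this rule, the median was 0.24 and 79.4% lay above 0. The smallest p-values were those of Fbn2, a fibrillin of developing microfibrils, at 1.19 (SE 0.18, adjusted p = 0.0820), and Acan, the aggrecan core protein that several ADAMTS enzymes cut, at 0.96 (SE 0.18, adjusted p = 0.132). None of the 20 passed the adjusted threshold, and none of the members of either other protease list did. Without both narrow wild-type arrays the median of the substrates was 0.365, with 18 of the 20 above 0. The median of all genes of the brightest group was then 0.09.

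Markers of other cells differed between the same arrays. All 14 macrophage markers had averaged differences above 0, with a median of 0.69, and 9 (64.3%) had an unadjusted p under 0.05, against 20.8% higher among all genes of the brightest level group, which holds 11 of the 14. Without both narrow wild-type arrays the macrophage median was 0.46, with 13 of the 14 above 0 on average and 12 in the descending aorta. The mean log2 value of the macrophage markers was 7.04 and 6.61 on the wild-type ascending and 7.35 and 7.09 on the wild-type descending arrays. It was 7.82 and 7.65 on the knockout ascending and 7.93 and 7.50 on the knockout descending arrays. All 4 knockout arrays were above all 4 wild-type arrays. Among the proteases the same held for Mmp2, Mmp9, Adam8, Adam9, Adamts4, Adamts8, Adamts12, Ctsd, Ctsl and Plau. It also held for the mean of the matrix substrates. How many of all genes had this order of arrays was not counted. The looser pattern, with knockout above wild-type within each segment, was found in 7.81% of all genes. Of 12 neutrophil markers 9 were above 0, with a median of 0.67 in the ascending and 0.56 in the descending aorta, and their mean was 5.81 and 5.32, 5.49 and 5.68, 6.36 and 6.28, and 5.65 and 5.95 in the same order. The knockout ascending arrays were the highest, as they were for Mmp2, Mmp8, Mmp9, Adam8, Adamts1, Adamts16, Plat and Plau. The share of all genes with the knockout ascending arrays highest was not counted either. Both knockout ascending arrays lay above both knockout descending arrays for 11 of the 44 proteases (25%) and for 18.3% of all genes. S100a8, an abundant neutrophil gene, differed by 2.42 in the ascending aorta, while Ly6g, a surface marker of mature neutrophils, was lower by 1.40 on average. In pooled tissue, a different number of cells of a type and a different amount of RNA per cell cannot be told apart. The part of these markers in the protease values was not tested.

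Other lists moved with segment as well as genotype. Endothelial markers (11 genes) had a median of -0.74 in the ascending and -0.06 in the descending aorta, and smooth muscle markers (10 genes) 0.26 and 0.18. Fibroblast and adventitial markers (10 measured of 11) had 0.03 and 0.22, cardiomyocyte markers (11 genes) 0.23 and 0.53, and markers of cartilage, bone and osteoclasts (12 genes) 0.11 and 0.07. Skeletal muscle markers (10 genes) read highest on the wild-type ascending arrays, at means of 7.11 and 8.22 against 5.51 to 6.51 elsewhere, with medians of -1.84 in the ascending and 0.53 in the descending aorta. Adipocyte markers (9 measured of 10) were highest on the wild-type descending arrays, at 7.57 and 6.90, with medians of -0.41 and -0.73, and mast cell markers (8 genes) had -0.13 and -0.49. Without both narrow wild-type arrays, 3 ascending medians turned below 0. They were those of cardiomyocyte (-0.03), of fibroblast and adventitial (-0.04) and of cartilage, bone and osteoclast markers (-0.11). The endothelial median in the descending aorta was then -0.42. Adipocyte and mast cell medians in the descending aorta were -1.33 and -0.78 without these arrays. The skeletal muscle median in the ascending aorta was -0.90. The part of these lists in the protease values was not tested.

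**Figure D5:**
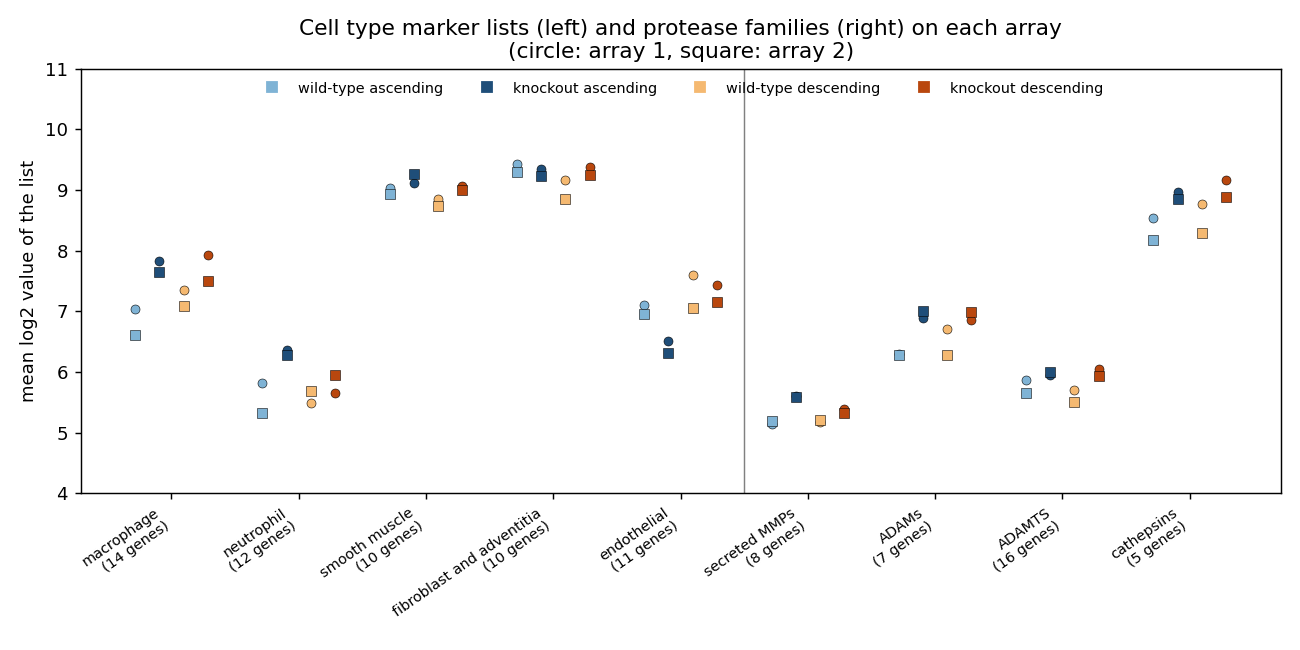
Mean log2 value of cell type marker lists (left of the line) and of protease families (right of the line) on each array, by genotype and segment. Macrophage and smooth muscle markers, secreted MMPs, ADAMs, ADAMTS and cathepsins are higher on all 4 knockout arrays than in wild-type of the same segment. Endothelial markers are lowest on the 2 knockout ascending arrays.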

How the data were processed

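Pooled aortic RNA (5 ng per array, amplified and biotin labelled, per the labels' protocols) was hybridised to 8 Affymetrix arrays. The authors deposited 1 log2 value per probe set and array, and the submitters' processing notes name RMA in Affymetrix Expression Console. No source used here gives their versions, the genome build or how probe sets were defined. RMA corrects background, normalises between arrays and summarises probes, which compresses differences of dim genes. Of 41345 probe sets, 23521 carried 1 gene symbol, and the brightest was kept for each of 22180 genes; 1082 genes had several, 5 of them proteases described here.

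Group means were fitted to all 8 arrays with limma 3.58.1 in R 4.3.3 (4 residual and 5.52 prior degrees of freedom), with p-values adjusted by Benjamini-Hochberg within each of 6 comparisons. All tests were two-sided. The median standard error over all genes was 0.21 for the averaged effect and 0.30 within a segment. The procedure was tested on simulated data.

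The proteases and all gene lists were chosen with earlier results of these data known. Values on every array are given for members with an unadjusted p under 0.05 in a knockout effect, or under 0.01 in another comparison, and for the brightest member of each family, 17 in all. From the lists of inhibitors, other proteases and substrates, called genes or those with the 2 smallest p-values are named; other named members and the named marker genes were picked after their values were seen. All 44 genes matched the RefSeq annotation of GRCm38.p6 by gene identifier, and 25 had a promoter window there. Alternatives were another centring or scaling, a filter on dim genes, the treatment of several probe sets, other limma options, a replicate block, and leaving out arrays. No block for the array number was used in the fit. Plots used matplotlib 3.10.9 (Python 3.11.15).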

Additional observations from a re-analysis of the deposited data

Results flagged for a closer look

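Mmp24 and Adamts17 were noted because their genotypes separated in opposite directions in the segments. Mmp24, a membrane-bound MMP, read 5.18 and 5.01 in wild-type and 4.89 and 4.57 in knockout ascending aorta, and 4.83 and 4.50 against 4.90 and 5.03 in descending aorta. The difference of its knockout effect between segments was -0.66 (SE 0.36, unadjusted p = 0.10 by limma). Adamts17 read 6.07 and 5.75 against 5.74 and 5.71 in the ascending and 5.38 and 5.43 against 5.76 and 5.48 in the descending aorta, and its difference between segments was -0.40 (SE 0.35, unadjusted p = 0.288 by limma). Neither interaction passed a threshold. Such opposite separation was found for 2 of the 44 proteases (4.55%) and for 3.65% of all genes. With 2 arrays per group, no group was large enough for a check of single outlying arrays.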

How the results depend on the processing

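No protease passed an adjusted p under 0.05 under any alternative; at a threshold of 0.1, 1 did in the averaged effect, Adamts8, whose adjusted p ranged from 0.0503 to 0.403 over the alternatives. Leaving out 1 array at a time gave 11 to 16 proteases with an unadjusted p under 0.05 in the averaged effect (median 0.30 to 0.42), 5 to 12 in the ascending (median 0.18 to 0.40) and 2 to 11 in the descending effect (median 0.25 to 0.48), and over all alternatives 0 to 4 and 0 to 7 in the segment differences of wild-type and knockout. Without both narrow wild-type arrays the averaged median was 0.24, the ascending count 15 and the ascending median 0.18, and the averaged difference of Htra1 turned from 0.14 to -0.004, 1 of 11 proteases that changed sign. Centring each array on its median moved the median of all genes to 0.09 in the averaged and 0.14 in the descending effect, and that of the proteases to 0.45 in both. With the replicate number as a block in limma, 16 proteases passed the unadjusted threshold in the averaged effect, where 12.4% of all genes did. In the ascending effect 10 passed (9.61% of all genes) and in the descending effect 7 (6.86%). The smallest adjusted p of a protease was 0.0925. The deviations of same-numbered arrays correlated at 0.29 between the wild-type groups and from -0.08 to 0.12 in the other 5 pairs of groups, and whether a number marks a shared source or batch within wild-type was not tested. Averaging the probe sets of a gene gave 0.66 for Adamts8 and 0.39 for Adam19. Without the dimmest 25% of genes 41 proteases were tested. Signal over background was not used here, so detection of the dimmest members, such as Mmp3, Mmp12 and Mmp13, was not assessed; the narrow arrays and the relation of differences to level limit the wild-type comparison, and the cause of either was not tested.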
